A study of Homo sapiens with 18 samples.

Results

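The clustered histone genes encode the linker histone H1 and the core histones H2A, H2B, H3 and H4. They were taken as the array rows whose annotated symbols all begin with H1-, H2AC, H2BC, H3C or H4C. This gave 75 of the 20546 rows with a gene symbol: 11 rows for H1, 15 for H2A, 19 for H2B, 12 for H3, 15 for H4 and 3 that join genes of 2 families. Of these rows, 62 carried 1 symbol and 13 carried several. They held 76 symbols, 72 of them protein coding in RefSeq and 4 of them pseudogenes or a long noncoding RNA. H2BC18 has one of these prefixes but no row that met the rule, and was not analysed as a member. H1-7, H1-8, H1-10, the pseudogene H1-9P and the noncoding H1-10-AS1 fit the prefix but lie outside the histone clusters. Histone paralogs are close in sequence, so probes designed for one copy can bind RNA of others, and a row with 1 symbol may still hold signal of its relatives.

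RNA came from HepG2, an established human hepatocellular carcinoma cell line, after stable introduction of 1 of 3 plasmids with G418 selection. The aWT pool joined 6 clones expressing thyroid hormone receptor TRα1, the bWT pool joined 12 clones expressing TRβ1, and the NR pool joined 11 clones with the empty plasmid. Each pool was kept for 6 h in hormone-stripped serum with ethanol vehicle or with 100 nM T3 (triiodothyronine, the active thyroid hormone), which gave 6 groups. The 3 arrays of a group are described as independent biological repeats and carry the numbers 1 to 3. Since each construct is represented by 1 pool, a difference between pools cannot be told apart from a difference between the clones that were pooled.

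Replication-dependent histone genes are transcribed in S phase, when new DNA has to be packed into nucleosomes. Their mRNAs lack introns and end in a conserved stem-loop bound by SLBP in place of a poly(A) tail, and NPAT is the coactivator of their transcription. H2A and H2B genes often stand as divergent neighbours that share an upstream region, in which H2B promoters carry an octamer bound by OCT1.

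Promoters of 3 H2B genes are shown because the pool differences centred on H2BC12, were small at its relative H2BC11 and ran the other way at H2BC14. The sequences are the 250 bases before the gene start, from RefSeq (GRCh38.p14), read 5′ to 3′ on the strand of the gene, with the octamer in capitals.
H2BC12: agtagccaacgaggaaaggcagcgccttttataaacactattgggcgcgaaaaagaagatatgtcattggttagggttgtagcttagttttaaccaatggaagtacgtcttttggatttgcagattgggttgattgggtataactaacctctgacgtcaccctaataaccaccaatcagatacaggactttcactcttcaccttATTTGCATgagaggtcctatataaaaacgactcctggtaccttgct
H2BC11: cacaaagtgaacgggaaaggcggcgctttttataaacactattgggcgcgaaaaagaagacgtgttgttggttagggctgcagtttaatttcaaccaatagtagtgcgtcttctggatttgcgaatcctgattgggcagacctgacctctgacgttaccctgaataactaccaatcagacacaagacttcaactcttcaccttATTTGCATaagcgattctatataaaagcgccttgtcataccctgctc
H2BC14: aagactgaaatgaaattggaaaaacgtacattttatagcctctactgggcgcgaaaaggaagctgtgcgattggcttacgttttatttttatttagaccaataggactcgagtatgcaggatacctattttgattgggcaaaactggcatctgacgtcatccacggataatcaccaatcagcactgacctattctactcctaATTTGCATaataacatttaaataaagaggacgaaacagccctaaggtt
They lie at chr6:27146859-27147108 (minus strand), chr6:27132796-27133045 (minus strand) and chr6:27814772-27815021 (plus strand). The octamer began 46, 47 and 48 bases before the start. The table has 2 entries for H2BC12, of which the one shown starts farther along the chromosome.

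Promoter windows (250 bases before to 50 bases after the start) were found for 66 of the 76 symbols, and none for H2AC12. ATTTGCAT, searched on both strands, stood in 13 of 17 H2B windows (76.5%) and 11 of 16 H2A windows (68.8%), against 2.19% of all 27305 genes in the table. It stood in 1 of 11 H3 windows and in no window of the 13 H4 or 9 H1 genes. TATAAA was found in 66.7% of the histone windows against 14% of all genes, and CCAAT in 83.3% against 39.7%. The thyroid hormone response element half-site AGGTCA was in 9 of 66 histone windows (13.6%) against 16.5% of all genes. The direct repeat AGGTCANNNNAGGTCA, which contains that half-site at each end, was in 0 of 66 windows against 0.0256% of all genes. These matches describe letters in the windows only. Aligned end to end over the whole window, the H2BC12 and H2BC11 promoters were 75% identical, the closest of the 136 pairs of H2B promoters after H2BC13 and H2BC14 at 82.7%, where the median pair shared 53.6%.

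The median log2 signal of the arrays ranged from 5.31 to 5.49. The 9 measured hepatocyte and HepG2 markers all stood above the median row, from 10.72 for TTR to 12.75 for ALB. Of the other markers, 1 of 6 stromal genes (COL1A1), 0 of 4 endothelial genes and 1 of 5 blood cell genes (LYZ, at 11.82) did so, and PTPRC, the leukocyte marker, was at 2.46. THRA, the gene of the introduced TRα1, averaged 7.73 ± 0.31 in aWT against 7.04 ± 0.16 in NR (SD, n = 6), without overlap. THRB, the gene of the introduced TRβ1, averaged 7.19 ± 0.26 in bWT against 6.86 ± 0.30 in NR (SD, n = 6), and its arrays overlapped. Of the histone rows, 34 of 75 had a mean below the median row of 6.13, H2BC12 (6.04) and H2AC12 (4.24) among them. In such bulk RNA, fewer cells in S phase and less histone RNA per cell cannot be told apart.

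The largest differences of the whole histone set were between the receptor pools and the empty-plasmid pool, and they were present without hormone. H2BC12, an H2B gene of the chromosome 6 cluster, was 6.57-fold higher in aWT and 5.33-fold higher in bWT than in NR on vehicle. H2AC12, its H2A partner, was 3.52-fold and 2.22-fold higher. A row that joins H2BC12, H2BC12L, H2BC17 and H2BC5 was 3.48-fold and 2.24-fold higher. Among rows of 1 gene, the next largest vehicle differences were far smaller: 0.47 for H2BC11, -0.68 for H2BC3 (H2B) and -0.55 for H2AC13 (H2A) in aWT, and 0.27 for H4C14 (H4), -0.37 for H1-5 (H1), -0.34 for H3C7 (H3) and -0.30 for H2BC3 in bWT, none of which passed without the block. The highest of the other rows of several genes was a row of H4C11 and H4C12, at 0.36 in aWT and 0.31 in bWT, which did not pass. Its mean signal was only 1.80. The other row of these genes, with a mean of 9.69, averaged 9.74, 9.72 and 9.69 on vehicle in aWT, bWT and NR. H2AC13 also had a low mean signal, at 2.74. Between bWT and aWT on vehicle the ends among rows of 1 gene were H2AC12 (-0.66), H2BC12 (-0.30), H1-5 (-0.29), H2AC13 (0.41), H2BC3 (0.39) and H2BC26 (0.34), and none of these passed. The row of 4 H2B genes differed there by -0.64, which passed with the block (limma, adjusted p = 0.00503) and not without (adjusted p = 0.148).

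For H2BC12, the vehicle arrays numbered 1 to 3 read 8.03, 7.08 and 6.00 in aWT, 7.71, 6.61 and 5.88 in bWT, and 4.43, 4.78 and 3.75 in NR, all on the log2 scale. With T3 the values were 7.61, 7.73 and 6.59 in aWT, 7.47, 6.90 and 6.05 in bWT, and 4.402, 3.51 and 4.19 in NR. All 12 receptor arrays lay above all 6 NR arrays, while within the receptor pools the array numbered 3 was always the lowest. On vehicle the log2 difference from NR was 2.71 ± 0.53 in aWT (SE, limma, adjusted p = 0.0407) and 2.41 ± 0.53 in bWT (adjusted p = 0.167). With the repeat number as a block, which takes out the spread between repeats, the adjusted p-values were 2.52e-04 and 0.00123.

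H2AC12 showed the same separation at a lower signal. On vehicle it read 5.41, 4.83 and 5.20 in aWT, 4.53, 4.32 and 4.59 in bWT, and 3.06, 3.69 and 3.24 in NR. On T3 it read 5.09, 4.79 and 4.52 in aWT, 4.43, 4.02 and 4.70 in bWT, and 3.10, 3.41 and 3.37 in NR. Again no receptor array overlapped NR. The vehicle difference was 1.81 ± 0.21 in aWT (limma, adjusted p = 0.00036) and 1.15 ± 0.21 in bWT (adjusted p = 0.0401).

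The row of 4 H2B genes was the least variable of the 3. Its values on vehicle were 9.96, 9.85 and 10.08 in aWT, 9.45, 9.10 and 9.42 in bWT, and 8.09, 8.16 and 8.25 in NR. On T3 they were 9.78, 9.87 and 10.14, then 9.40, 9.15 and 9.38, then 8.07, 8.20 and 8.42 in the same order of pools. The 3 pools did not overlap at all. Over both treatments aWT exceeded NR by 1.75 ± 0.09 (limma, adjusted p = 3.58e-08) and bWT exceeded NR by 1.12 ± 0.09 (adjusted p = 1.29e-05). Without the block this was the 1 histone row called lower in bWT than in aWT, by -0.63 ± 0.09 (limma, adjusted p = 0.00466). That call was lost in 2 of the 3 omissions of a repeat number, fitted without the block (adjusted p up to 0.357). The same row shares a symbol with the H2BC12 row, so the 2 rows are not independent measurements. The rows of their own for H2BC5 and H2BC17 differed from NR by only -0.06 and -0.17 in aWT and by 0.07 and -0.04 in bWT, and none of these passed.

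**Figure D1:**
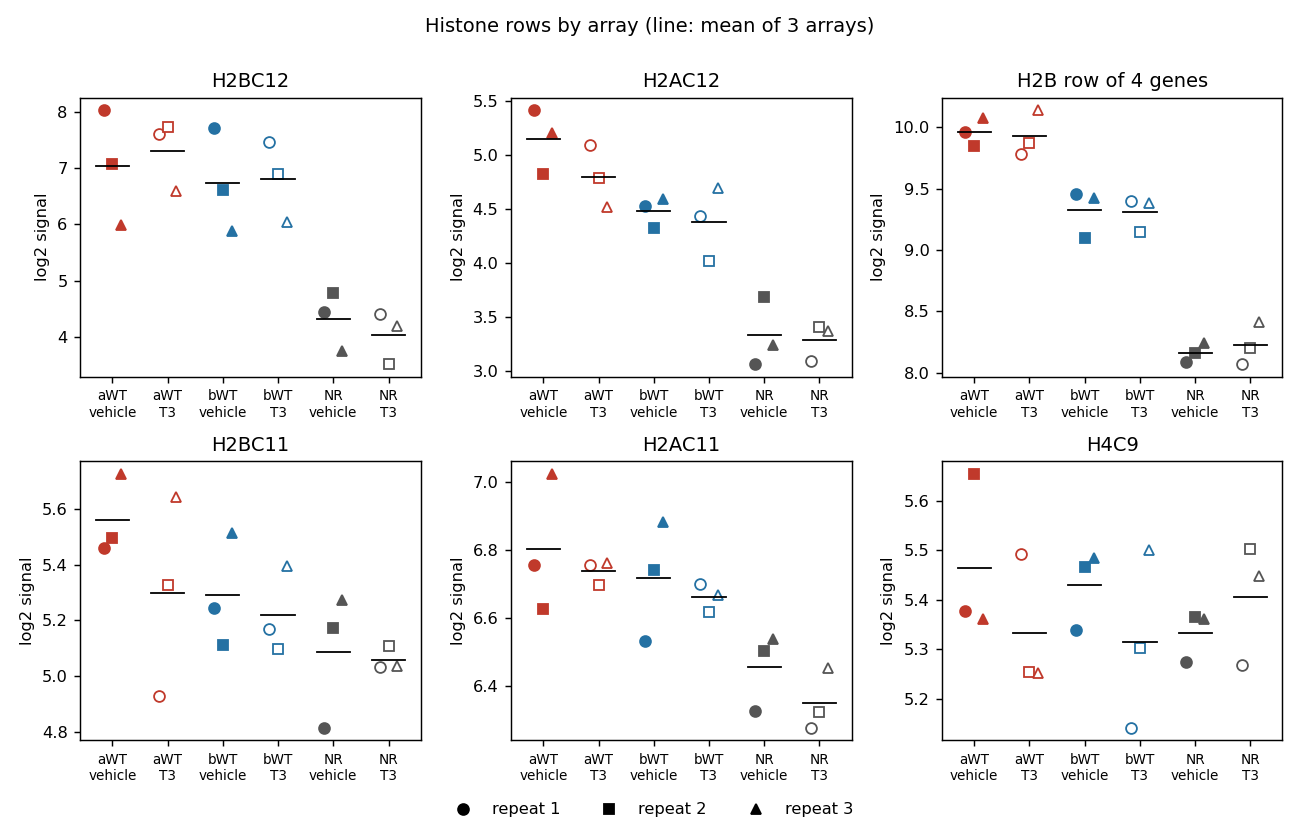
Log2 signal of 6 histone rows on each of the 18 arrays, by pool and treatment; filled symbols are vehicle, open symbols T3, shapes give the repeat number and lines the mean of 3 arrays. H2BC12, H2AC12 and the row of 4 H2B genes separate both receptor pools from NR without overlap, H2AC11 separates aWT from NR, and H4C9 overlaps in all groups.

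The number of histone rows past the threshold (adjusted p under 0.05) on vehicle was 3 for aWT against NR, all higher, where 0.307% of all named rows passed. It was 2 for bWT against NR, both higher, against 0.117% of all rows, and 0 for bWT against aWT, where 0% of rows passed. In that last comparison 3 histone rows and 593 of all 20546 rows had an unadjusted p under 0.05. With the block the counts were 5, 3 and 1, against 2.07%, 0.735% and 0.54% of all rows. The T3 arrays gave 3 rows for aWT (0.433% of all rows) and 2 for bWT (0.156%). For aWT the 3 rows called on vehicle were also the 3 called on T3. For bWT the row of 4 H2B genes and H2AC12 were called on both, and H2BC12 missed on both without the block.

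Averaging vehicle and T3 arrays gave 6 arrays per pool and a smaller error. Then 6 histone rows passed for aWT against NR, 4 higher and 2 lower, where 1.38% of all rows passed. For bWT against NR it was 3, all higher (0.38% of all rows), and for bWT against aWT 1, lower (0.35%). With the block the counts were 12, 7 and 3, against backgrounds of 7.54%, 3.61% and 2.2%. The 3 rows called for bWT without the block were among the 6 called for aWT, but these comparisons share the NR arrays. Leaving out any 1 array kept H2BC12, H2AC12 and the row of 4 H2B genes past the threshold against NR in both pools when treatments were averaged. When a whole repeat number was omitted, which was done without the block only, some calls were lost. Without repeat 2 the H2BC12 calls were lost (adjusted p = 0.156 in aWT and 0.416 in bWT), and without repeat 3 the H2AC12 call in bWT was lost (adjusted p = 0.276). On vehicle alone and without the block, the H2BC12 call in aWT was lost in 5 of the 6 omissions of 1 array, all but the array of aWT numbered 3, with adjusted p up to 0.228. In the same fit the H2AC12 call in bWT was lost without any one of the bWT arrays and without the NR arrays numbered 1 and 3, with adjusted p up to 0.241.

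H2BC11, H2AC11, H2BC12, H4C9 and H2AC12 follow one another in the order of RefSeq histone gene starts on chromosome 6, which holds 55 of the protein-coding members. Beside the large changes at H2BC12 and H2AC12, both genes of the adjoining H2B and H2A pair were modestly higher in aWT. H2AC11 read 6.76, 6.63 and 7.02 on vehicle and 6.75, 6.70 and 6.76 on T3 in aWT, against 6.33, 6.50 and 6.54 and 6.28, 6.32 and 6.45 in NR. All 6 aWT arrays were above all 6 NR arrays. The difference over both treatments was 0.37 ± 0.08 (limma, adjusted p = 0.0336), which fell short of the threshold in 11 of 12 omissions of 1 array (adjusted p up to 0.0955, the exception being the array of aWT on vehicle numbered 2). With the block its adjusted p was 0.00188 in aWT, and bWT was also higher, by 0.29 (adjusted p = 0.0195). H2BC11 differed by 0.36 in aWT, and passed with the block only (adjusted p = 0.0150, against 0.265 without). H4C9, an H4 gene that RefSeq places inside the span of H2BC12, between its ends, differed by 0.03 in aWT and 0.00 in bWT and did not pass.

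RefSeq places an H2A and an H2B gene side by side as a pair in 12 cases (for H2BC12 and H2AC12 setting aside the nested H4C9), and 10 pairs had a row of their own for each partner. Both partners were above 0 against NR in 2 of the 10 pairs in aWT, the pairs numbered 11 and 12, and in 3 pairs in bWT. In the other pairs the differences ran from -0.55 at H2BC14 to 0.15 at H2AC25 in aWT.

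**Figure D2:**
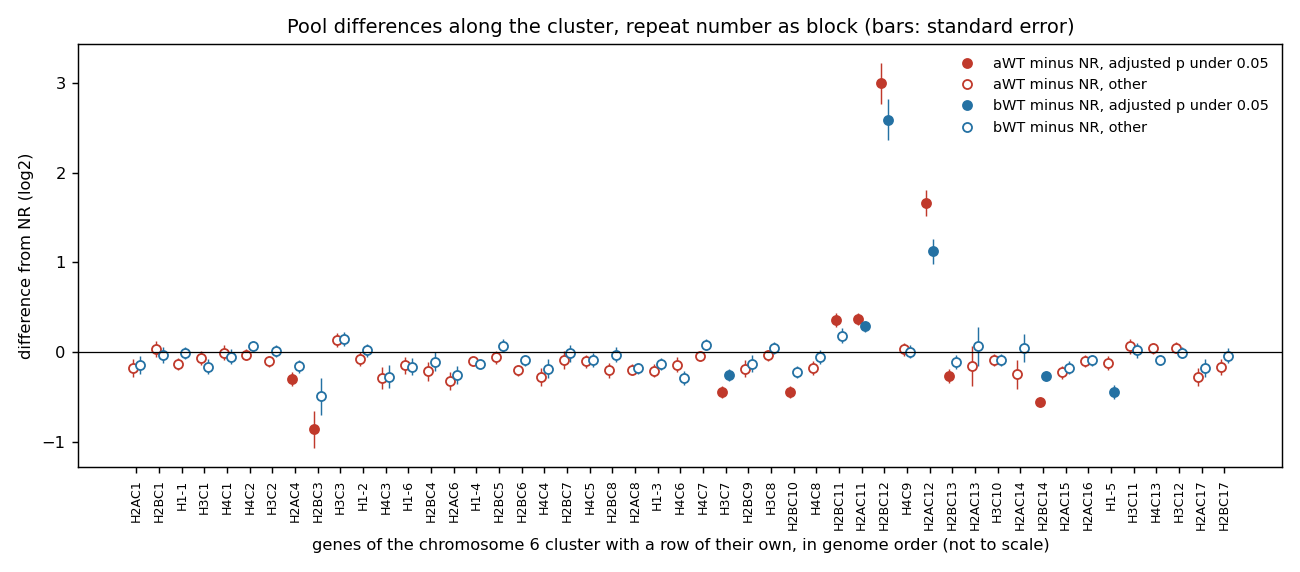
Difference from NR (log2, mean of both treatments) for histone genes with a row of their own, in the order of the chromosome 6 genes and not to scale; red is aWT, blue is bWT, bars are the standard error with the repeat number as block, and filled points had an adjusted p under 0.05 in that fit. The high values stand at H2BC12 and H2AC12, with smaller positive ones at H2BC11 and H2AC11 on one side and H4C9 near 0 between them.

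Most other histone rows leaned slightly lower in aWT than in NR. Over both treatments 53 of 75 rows were below 0, with a median of -0.10 against 0.00 for all named rows. Above 0 were 29.3% of the histone rows and 50.5% of all named rows. The lean was smaller on the vehicle arrays, with 43 rows below 0 and a median of -0.03, than on the T3 arrays, with 54 and -0.14. That difference between treatments was tested per row only, and no row passed. The median within the repeats numbered 1, 2 and 3 was -0.08, -0.17 and -0.03. Family medians were -0.18 for H2A, -0.12 for H2B, -0.10 for H1, -0.05 for H4 and 0.02 for H3. In bWT 46 of 75 rows were below 0, with a median of -0.04 (-0.02 on vehicle and -0.09 on T3). Above 0 there were 38.7% of the histone rows and 50% of all named rows.

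H2BC10 and H3C7 passed as lower in aWT without the block. H2BC10 (H2B) read 3.38, 3.32 and 3.6 on vehicle and 3.15, 3.45 and 3.52 on T3 in aWT, against 3.72, 3.62 and 3.98 and 3.88, 3.88 and 4.04 in NR. All aWT values were below all NR values, at a low signal. The difference was -0.45 ± 0.09 (limma, adjusted p = 0.0123). H3C7 (H3) averaged 6.24 ± 0.14 in aWT, 6.43 ± 0.09 in bWT and 6.68 ± 0.11 in NR (SD, n = 6). It fell by 0.45 in aWT (adjusted p = 0.00763), with no overlap with NR. Each of the 12 omissions of 1 array kept both calls. Omitting a repeat number, fitted without the block, lost the H2BC10 call each time and the H3C7 call in 2 of 3 cases (adjusted p up to 0.274 and 0.255). H3C7 differed by -0.26 in bWT (adjusted p = 0.371, and 0.0445 with the block).

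H2BC14 had one of the highest signals and a strong dependence on the repeat number. Its vehicle values were 10.51, 10.22 and 11.26 in aWT, 10.76, 10.59 and 11.43 in bWT, and 10.91, 10.80 and 11.71 in NR. Within each repeat the order was aWT, bWT, NR, while the arrays numbered 3 were the highest in each pool. With the block aWT was lower than NR by -0.55 ± 0.06 (limma, adjusted p = 2.14e-05) and bWT by -0.26 ± 0.06 (adjusted p = 0.0180) over both treatments, and bWT was higher than aWT by 0.29 (adjusted p = 0.0116). Without the block none of these passed.

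Other rows passed against NR in aWT with the block only. H2BC3 differed by -0.86, but the repeat numbered 2 gave -1.65 where the others gave -0.48 and -0.47. H2AC4 differed by -0.30 (-0.61 in the repeat numbered 2, -0.15 and -0.15 in the others), H2BC13 by -0.27 and the row of H3C4 and H2AC7 by -0.25. In bWT the linker histone H1-5 was lower than NR by -0.44 ± 0.08 (limma with the block, adjusted p = 0.00429) and lower than aWT by -0.32 (adjusted p = 0.0394). H1-5 read 7.98, 8.13 and 8.25 on vehicle in bWT, against 8.26, 8.39 and 8.57 in aWT and 8.30, 8.36 and 8.82 in NR. H1-1 to H1-4 did not pass in any pool comparison. H1-10, a linker histone gene transcribed outside the clusters, averaged 8.05 ± 0.09, 7.95 ± 0.13 and 7.88 ± 0.14 in aWT, bWT and NR (SD, n = 6), and these ranges overlapped.

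T3 left no histone row past the threshold in any pool. In aWT the count was 0 of 75, where 0.131% of all rows passed, and 2 histone rows had an unadjusted p under 0.05. In bWT it was 0 (0.073% of all rows, and 0 at an unadjusted p), and in NR 0 (0.00973%, and 0 at an unadjusted p). Averaged over the pools it was 0, where 0.423% of rows passed, and 1 histone row had an unadjusted p under 0.05. Of all 20546 rows, 523, 457, 417 and 784 had an unadjusted p under 0.05 in aWT, bWT, NR and the average. With the block the counts stayed at 0, against 0.667%, 0.477%, 0.0973% and 1.69% of all rows, with 6, 0, 2 and 1 histone rows at an unadjusted p under 0.05. In that fit 1396, 1270, 1222 and 2126 of all 20546 rows were at an unadjusted p under 0.05. The median histone row had a standard error of 0.157 for a difference between groups without the block and 0.108 with it. Small changes were therefore not detectable with 3 arrays per group.

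H2BC12, the gene with the largest pool difference, differed between T3 and vehicle by 0.28 ± 0.53 in aWT, by 0.07 in bWT and by -0.28 ± 0.53 in NR. Its 95% intervals ran from -0.85 to 1.41 in aWT and from -1.41 to 0.85 in NR. These errors and intervals are from the fit without the block, so they include the spread between repeats. H2AC12 differed by -0.35 in aWT, with -0.32, -0.04 and -0.68 in the 3 repeats. None of these passed.

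The lowest row in aWT was one of the 3 rows of H3C13, H3C14 and H3C15, at -0.37. Next was a row of H4C11 and H4C12 at -0.36, which had a mean signal of only 1.80. The other row of these H4 genes averaged 9.74 on vehicle and 9.61 on T3 in aWT. The same H3 row was the highest in bWT, at 0.31. The remaining rows of these H3 genes did not show this rise. They averaged 9.27 and 8.94 on vehicle and 9.21 and 8.96 on T3 in bWT. In aWT they averaged 9.15 and 8.86 on vehicle and 8.95 and 8.82 on T3. The other ends of each T3 comparison are given among rows of 1 gene. In aWT they were H2AC14 (-0.32), H2BC13 (-0.30), H2AC13 (0.33) and the pseudogene H2BC19P (0.26). In bWT they were H2AC6 (-0.21), H2BC19P (-0.19), H2BC1 (-0.18), H1-8 (0.19), H2BC6 (0.18) and H2AC14 (0.16). In NR they were H2AC13 (-0.46), H1-9P (-0.24), H2AC14 (0.46), H2BC3 (0.29) and H2BC4 (0.29). H2AC13 and H2AC14 thus took opposite signs in aWT and NR, and neither pool's change passed. H2AC13 had a low signal, from 2.09 to 3.46 over the 18 arrays. The row that joins it with H3C10 went the other way in both pools. It averaged 9.198 on vehicle and 9.475 on T3 in NR, and 9.222 and 9.129 in aWT. H2AC14 read 6.41, 3.87 and 4.404 on NR vehicle and 6.07, 4.79 and 5.21 on NR T3, so the spread between repeats was far wider than the difference. H1-10 differed by -0.13, 0.02 and -0.14 in aWT, bWT and NR. Averaged over the pools, the ends among rows of 1 gene were H2AC12 (-0.16), H2BC11 (-0.12), H4C7 (-0.12), H2BC7 (0.12), H2AC1 (0.10) and H2AC14 (0.10).

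The balance of signs differed between pools by description. T3 minus vehicle was above 0 for 21 of 75 rows in aWT (median -0.06), 30 in bWT (median -0.04) and 50 in NR (median 0.05). These were 28%, 40% and 66.7% of the histone rows, against 43.9%, 45.9% and 46.2% of all named rows. The medians of all named rows were -0.02, -0.01 and -0.01. Within the repeats, the NR median was -0.01, 0.02 and 0.10, highest in the repeat numbered 3. The aWT medians were -0.09, -0.07 and -0.02. Those of bWT were 0.01, 0.00 and -0.05, so its lean below 0 was seen in the repeat numbered 3 alone. The difference of the responses between pools was tested per row, and 0 of 75 rows passed for aWT against NR, bWT against NR or bWT against aWT, where 0% of all rows passed in each. Unadjusted p-values under 0.05 were reached by 3, 0 and 1 histone rows, and by 286, 275 and 223 of all 20546 rows. Among rows of 1 gene, the differences of response were widest for H2AC13 (0.80) and H2AC14 (-0.78) in aWT against NR, followed by H2BC12 (0.56), H2BC26 (0.45), H2BC13 (-0.44) and H2BC4 (-0.40). For bWT against NR they were H2AC13 (0.40), H2BC12 (0.36), H1-8 (0.27), H2BC3 (-0.40), H2BC19P (-0.35) and H1-2 (-0.32). For bWT against aWT they were H2AC14 (0.48), H2AC12 (0.25), H2BC6 (0.24), H2BC19P (-0.45), H2AC13 (-0.39) and H2BC26 (-0.35). Of the rows of several genes, a row of H4C11 and H4C12 differed by -0.58 in aWT against NR, and the H3 row named above by 0.68 in bWT against aWT. Neither passed. The remaining rows of these H3 genes, with group means given above, differed by less. H2AC13 and this row of H4C11 and H4C12 had low signals, as given above. With the block it was again 0, against 0.0292%, 0% and 0% of all rows, with 8, 1 and 2 histone rows at an unadjusted p under 0.05. Of all 20546 rows, 770, 835 and 619 were at an unadjusted p under 0.05 in that fit.

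**Figure D3:**
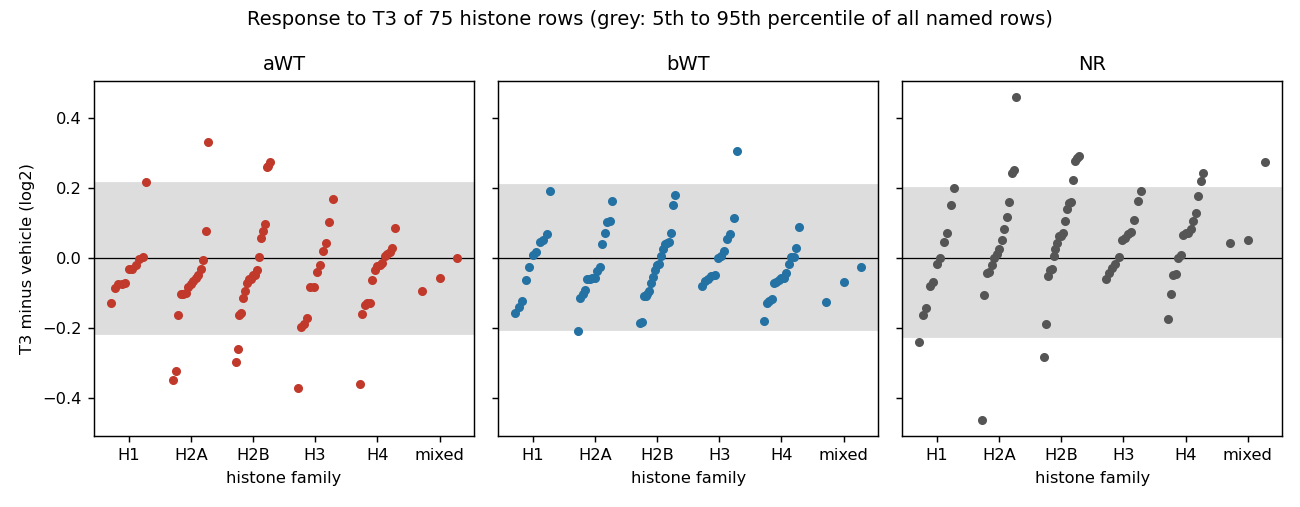
T3 minus vehicle (log2, means of 3 arrays) for the 75 histone rows in each pool, by family; grey marks the 5th to 95th percentile of all named rows. No row passed the threshold, and the rows above 0 number 21 in aWT, 30 in bWT and 50 in NR. Of all named rows, 43.9%, 45.9% and 46.2% were above 0.

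The repeat number moved histone rows far more often than the hormone did. In a model with group and repeat number, 20 histone rows passed between the repeats numbered 1 and 2 (11 higher and 9 lower), where 48.7% of all rows passed. Between 1 and 3 it was 35 (8 higher and 27 lower), where 47.6% passed. These shares of the histone rows, 26.7% and 46.7%, did not exceed those of all rows. Of all named rows that passed, 3144 were higher and 6866 lower in 1 than in 2. Against 3, 3385 were higher in 1 and 6393 lower. The median of 1 minus 3 was -0.09 over all named rows and -0.13 over the histone rows. Between 2 and 3 the count was 20 histone rows, 1 higher and 19 lower in 2, which is 26.7% of the histone rows where 10.8% of all rows passed. Of all named rows that passed there, 1054 were higher and 1169 lower in 2.

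H2BC14 averaged 10.53 ± 0.31 on the 6 arrays numbered 2 and 11.48 ± 0.22 on those numbered 3 (SD, n = 6), and was lower in 6 of 6 groups (difference -0.95, limma, adjusted p = 1.18e-06). H4C4, an H4 gene, was lower by -0.87 and H2BC13 by -0.60, each in 6 of 6 groups. H2BC3 was lower by -1.09, with group differences from -1.80 to -0.12. H4C3 differed by -0.48, but only in the 4 receptor groups. On vehicle H4C3 read 10.37 and 11.17 on the arrays numbered 2 and 3 in aWT and 10.53 and 11.15 in bWT, against 11.25 and 11.16 in NR. H2AC14 was lower by -0.55 in 6 of 6 groups and the row of H2BC15 and H2AC15 by -0.63 in 5 of 6. H2BC21 was the row that was higher, by 0.36 in 6 of 6 groups.

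H1-4, the linker histone gene with the highest signal among the H1 rows, was lower in 1 than in 2 by -0.32 and lower in 1 than in 3 by -0.55, each in 6 of 6 groups. H2AC14 was higher in 1 than in 2 by 1.49 and H3C3 by 0.60, each in 6 of 6 groups. H2BC12 was higher in 1 than in 3 by 1.20, H2AC14 by 0.94, H3C3 by 0.72 and H2BC19P by 0.59. Lower in 1 than in 3 were H2BC3 (-0.97), H2BC14 (-0.79), H4C3 (-0.65), the row of H2BC15 and H2AC15 (-0.59) and the row of H3C4 and H2AC7 (-0.57). Between 1 and 2 the rows lower in 1 included H2BC21 (-0.43), the row of H2AC18 to H2AC21 (-0.37), the row of H3C10 and H2AC13 (-0.29) and H1-6 (-0.28), and those higher in 1 included H2BC5 (0.39), the row of H4C14 and H4C15 (0.36) and H3C2 (0.35). The H3 genes H3C13, H3C14 and H3C15 share 3 rows, and these disagreed. Between 1 and 2 the differences were -0.66, 0.55 and 0.47, all past the threshold.

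**Figure D4:**
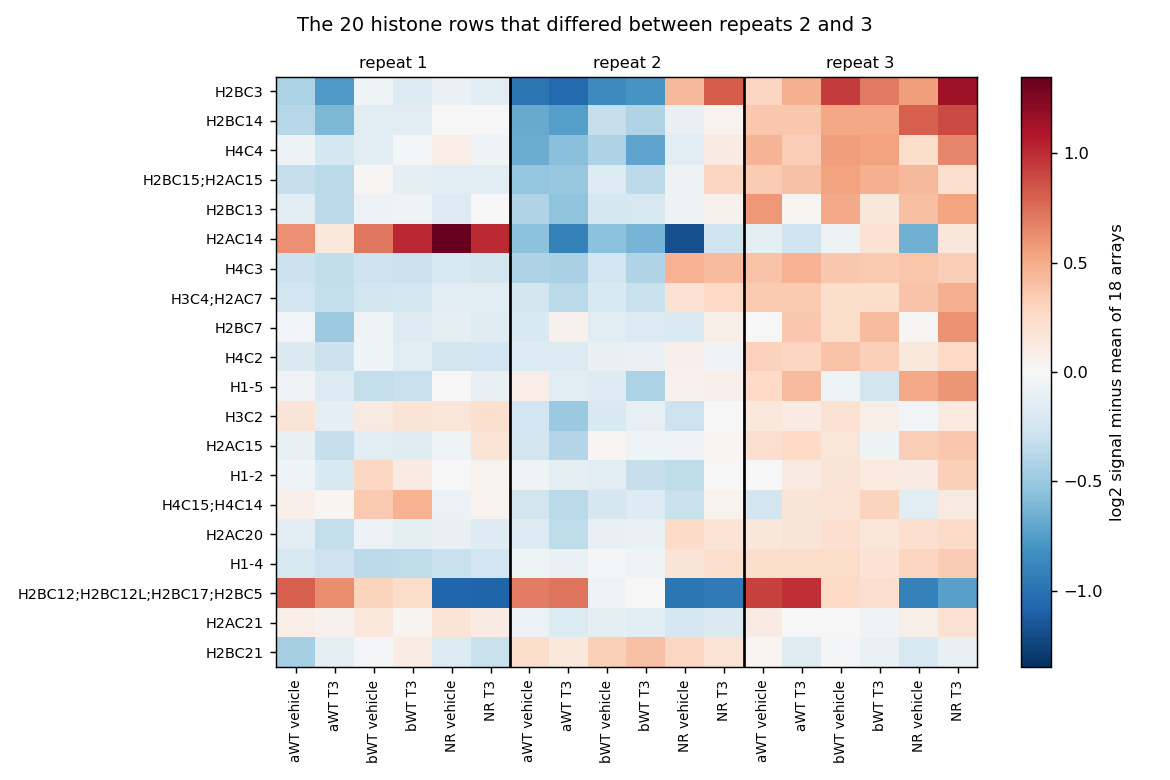
Log2 signal minus the mean of 18 arrays for the 20 histone rows that differed between the repeats numbered 2 and 3; columns are arrays grouped by repeat number, and red is higher. Most rows are highest on the arrays numbered 3, H2BC3 and H4C3 are also high on the NR arrays numbered 2, and the row of 4 H2B genes follows the pools.

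Cell cycle genes differed between the same repeats. Of 35 G2 and mitosis genes, 24 were lower on the arrays numbered 2 than on those numbered 3 and 0 higher, with a median of -0.29 against 0.01 for all rows, of which 10.8% passed. Between 1 and 2 the direction was the other way for this list, with 15 higher and 6 lower in 1, where 48.7% of all rows passed. Its median was 0.16 and the histone median -0.04, both above the -0.12 of all rows. Between 1 and 3 the list had 8 higher and 17 lower, where 47.6% of all rows passed. KIF20A, a mitotic kinesin, differed by -0.62 and the DNA topoisomerase TOP2A by -0.48. Of 45 S phase and DNA replication genes, 16 were lower and 0 higher in 2 than in 3 (median -0.08, where 10.8% of all rows passed). Between 1 and 2 it was 14 higher and 10 lower, and between 1 and 3 12 higher and 18 lower, against the same 48.7% and 47.6%. Between 2 and 3 the lower genes included MCM2, a subunit of the replicative helicase, by -0.35 and CLSPN, a replication checkpoint gene, by -0.45. Across the 18 arrays, the median histone deviation had a Pearson correlation of 0.755 with that of the G2 and mitosis genes and 0.538 with that of the S phase genes. These arrays share their repeats and pools, so the values are descriptions. On the NR arrays numbered 2 the histone median stood 0.06 (vehicle) and 0.07 (T3) above the row means, while it lay from -0.13 to -0.05 on the receptor arrays of that number. The G2 and mitosis median there was -0.06 and 0.01 in NR and from -0.24 to -0.11 in the receptor pools. The part of cell cycle state in the histone differences was not tested.

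**Figure D5:**
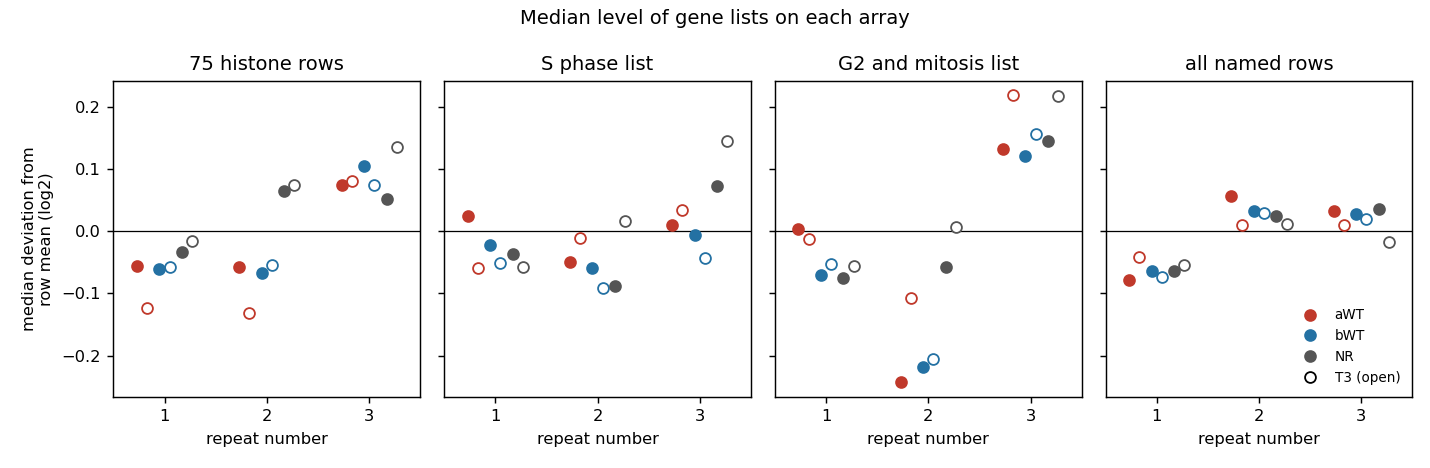
Median deviation from the row mean (log2) of the 75 histone rows, the S phase list, the G2 and mitosis list and all named rows on each array, by repeat number; colours are pools and open symbols are T3. The arrays numbered 3 are high for histones and for G2 and mitosis genes, and the NR arrays numbered 2 are above the receptor arrays of that number for both.

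The genes that make and handle histone mRNA were also measured, and since at most 1.38% of all rows passed in a comparison of pools or treatments without the block, counts of 0 in such short lists are near the background. Of 24 measured genes of histone transcription and 3′ end processing, 0 passed for T3 in any pool and 0 passed between pools without the block (limma, with 0 genes at an unadjusted p under 0.05 for T3 in each pool and 1 for bWT against NR over both treatments). For this and the lists below, 523, 457 and 417 of all 20546 rows had an unadjusted p under 0.05 for T3 in aWT, bWT and NR. Over both treatments 1743 and 1227 did so for aWT and bWT against NR. With the block TUT7, a uridylyl transferase acting on histone mRNA decay, was lower in bWT than in NR by -0.25 (adjusted p = 0.0335). SLBP differed from NR by 0.01 on vehicle in aWT and by 0.07 in bWT, and its T3 differences were -0.03, 0.01 and 0.14 in aWT, bWT and NR. NPAT differed from NR by -0.15 and -0.19 on vehicle. NPAT differed between T3 and vehicle by 0.02, -0.06 and -0.01 in aWT, bWT and NR. None of these passed. Between the repeats numbered 2 and 3 this list had 4 genes lower and 0 higher, where 10.8% of all rows passed. NPAT was among the 4, at -0.31.

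Of 28 histone chaperones, 0 passed for T3 or, without the block, between pools (limma, with 0 at an unadjusted p under 0.05 for T3 in each pool, and 3 and 2 for aWT and bWT against NR over both treatments). With the block over both treatments, 4 passed for aWT against NR, where 7.54% of all rows did. ASF1B, a replication-linked H3 and H4 chaperone, was higher in aWT than in NR by 0.29, and NASP (-0.26), SUPT16H (-0.22) and the importin IPO4 (-0.39) were lower. In bWT no chaperone passed against NR, and IPO4 was 0.43 higher than in aWT. Between the repeats numbered 2 and 3, 6 chaperones were lower and 1 higher, where 10.8% of all rows passed.

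Replication-independent histone variants had 13 matched genes, of which H3-3A and H3-3B were read from the same row. MACROH2A2, a macroH2A variant linked to silent chromatin, was higher in aWT than in NR by 0.80 ± 0.15 on vehicle (limma, adjusted p = 0.0261) and by 0.73 ± 0.10 over both treatments (adjusted p = 9.79e-04). In bWT it differed by 0.43 over both treatments (adjusted p = 0.117, and 0.00429 with the block). With the block bWT was lower than aWT by -0.30 (adjusted p = 0.0496). No other variant passed between pools, and 0 passed for T3 (limma, with 1, 0 and 0 at an unadjusted p under 0.05 in aWT, bWT and NR).

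Among S phase genes 0 of 45 passed without the block in a pool or T3 comparison (limma, with 0 at an unadjusted p under 0.05 for T3 in each pool, and 5 and 3 for aWT and bWT against NR over both treatments). With the block over both treatments, the counts were 3 of 45 in aWT and 5 of 45 in bWT, where 7.54% and 3.61% of all rows passed. MCM5 (0.27) and CCNE1, cyclin E1 (0.26), were higher in aWT and ORC1, an origin recognition subunit, lower (-0.24). In bWT CCNE1 was higher (0.24) and ORC1 (-0.37), GINS4 (-0.25), POLA1 (-0.31) and CLSPN (-0.51) lower. Of 35 G2 and mitosis genes, 0 passed without the block (0 at an unadjusted p under 0.05 for T3 in each pool, and 3 and 1 for aWT and bWT against NR over both treatments), and with it CDC25B was higher (0.35) and UBE2C lower (-0.40) in aWT, and UBE2C lower in bWT (-0.29). Of the markers, TTR (-0.70), AFP (-0.31) and LYZ (-0.42) were lower in aWT than in NR over both treatments without the block (limma, adjusted p = 0.00211, 0.0149 and 0.00789). TTR (0.63) and AFP (0.31) were higher in bWT than in aWT. With the block ALB (-0.21) and the stromal marker PDGFRB (-0.26) were also lower and APOA1 (0.32) higher in aWT than in NR, and FGB passed for T3 averaged over the pools (0.26). No endothelial gene passed in either fit between pools or for T3. The part of these marker differences in the histone results was not tested.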

How the data were processed

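RNA of 18 HepG2 samples was hybridised to whole-transcript arrays (Affymetrix Human Gene ST), after amplification from 200 ng of total RNA, per the labels' protocols. The authors deposited log2 values that the submitters' processing notes credit to RMA and R 2.7.1. RMA corrects background, quantile-normalizes and fits probe sets by median polish. Precision is set by the 3 arrays of each group.

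The 11775 of 32321 rows without a symbol (platform annotation) were left out. A linear model with 6 groups was fitted to 20546 rows with limma 3.58.1 in R 4.3.3 (lmFit, eBayes), with two-sided p-values adjusted by Benjamini-Hochberg within a comparison. The replicate numbers pair the arrays: all 45 pairs of the same number in different groups correlated (lowest 0.259, after subtracting group means), and 18 of 18 arrays matched best with their own number. Fits with that number as a block are given beside the main ones. No 2 arrays were duplicates (highest correlation 0.996).

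The members and the 9 gene lists were chosen with earlier results of these data known. Rows were named where they passed in any fit (for each comparison at most 6 higher and 6 lower), with the 3 highest and 3 lowest single-gene rows of each T3 and vehicle comparison, H1-10, SLBP, NPAT and up to 4 passing genes per list. Promoters were aligned globally with Biopython 1.88. The model code was tested on simulated data. Alternatives covered the block, array weights, a trended robust variance, centring, normalization, row filters, and each array or repeat left out. Repeats were left out without the block only.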

Additional observations from a re-analysis of the deposited data

How the results depend on the processing

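Alternatives for single rows were computed only for rows and comparisons already called in the main fit or with the block. Of these 999, 0 reversed a sign, 60 lost a call, 128 gained one and 811 kept their side of the threshold. Of the gains, 16 came from the block itself, which follows from that choice. Another 110 came from the block with 1 array left out. With the replicate block, the histone rows called became 5 for aWT minus NR and 1 for bWT minus aWT on vehicle, and 12, 7 and 3 for aWT minus NR, bWT minus NR and bWT minus aWT over both treatments; no T3 call changed. For bWT minus NR on vehicle the count was 1 with centred arrays, repeated quantile normalization, rows above the median row mean, all rows of the table or rows with 1 symbol, and 0 with only the arrays compared. Rows above the median row mean gave 1 for aWT minus NR on vehicle, and 3 and 1 for aWT and bWT minus NR over both treatments. That filter removed H2BC12 (mean 6.04), H2AC12 (4.24) and H2BC10 (3.63), whose means lie below the median row of 6.13, so their calls could not be kept. Rows with 1 symbol gave 0 for bWT minus aWT over both treatments. This filter removed the row of 4 H2B genes, the only row called there.

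Medians moved as follows. For bWT minus aWT on vehicle the histone median was 0.026 with centred arrays, 0.031 in rows above the median row mean and 0.025 in rows with 1 symbol. For repeat 1 minus repeat 3 it was -0.059 with centred arrays, -0.086 with repeated quantile normalization and -0.232 in rows above the median row mean, where repeat 2 minus repeat 3 gave -0.167. The T3 arrays in place of the vehicle arrays, an alternative chosen after seeing the data, gave -0.142 for aWT minus NR in place of -0.034.

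Single arrays were left out with and without the block, and repeat numbers without the block only. These omissions gave 1 to 6 called rows for aWT minus NR, 0 to 3 for bWT minus NR and 0 to 1 for bWT minus aWT on vehicle. Over both treatments they gave 2 to 15, 2 to 8 and 0 to 3. The count for repeat 2 minus repeat 3 ranged from 13 to 24, the lowest without the bWT array numbered 2 on vehicle or on T3. For T3 in NR and for the response of aWT minus NR it ranged from 0 to 1: without the NR vehicle array numbered 1 and with the block, H2AC14 passed, at 0.88 (adjusted p = 0.0166) and -1.20 (adjusted p = 0.0124). The T3 medians ranged from -0.128 to 0.009 in aWT and from -0.071 to 0.024 in bWT, those of the response from -0.171 to -0.030 for aWT minus NR and from -0.040 to 0.109 for bWT minus aWT, and those of bWT minus aWT from -0.027 to 0.052 on vehicle and from 0.009 to 0.083 over both treatments. The causes of these changes were not tested, beyond the smaller number of arrays or rows in each fit. No background level was measured, 34 of 75 rows lay below the median row mean, and paralogs close in sequence may share probes, which limits what single rows show.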
